A study of Mus musculus with 6 samples.

Results

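The mucin genes of the mouse colon were chosen by name: Muc1, Muc2, Muc3, Muc4, Muc6, Muc13 and Muc20, 7 of the 23282 genes in the deposited count table. They are secreted and membrane mucins, and the rule sets no threshold on a measured value. All 7 were among the 16586 genes with enough reads to be tested. Colon RNA of wild-type C57BL/6J mice aged 8 weeks was sequenced in 6 libraries, 3 from mice labelled as control or vehicle (libraries 3, 5 and 6) and 3 from mice given PCN (libraries 4, 5 and 6). PCN, pregnenolone-16α-carbonitrile, is a steroid that activates the rodent pregnane X receptor (PXR), a nuclear receptor of liver and gut that responds to foreign compounds. It was injected intraperitoneally at 40 mg/kg in DMSO and corn oil, 3 times at intervals of 8 h, and the colon was taken 8 h after the last injection. The labels do not say how the controls were dosed or whether each library came from a mouse of its own, so the p-values below measure the spread between these libraries.

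Mucins are large glycoproteins whose serine- and threonine-rich stretches carry dense O-linked sugar chains. Gel-forming mucins are secreted by goblet cells and gland cells and polymerise into mucus, and in the colon the mucus that separates bacteria from the epithelium is built on Muc2. Membrane mucins stay anchored in the apical membrane of epithelial cells, where their sugar-laden outer parts form the glycocalyx and their short inner tails can take part in signalling.

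Among the 7 genes, the secreted mucins Muc2 and Muc6 were the 2 whose lowest PCN library lay above the highest vehicle library. The fitted group difference was 1.42-fold for Muc2 and 4.35-fold for Muc6, the latter on only 11 to 122 counts a library. The membrane mucins Muc13, Muc3, Muc4, Muc1 and Muc20 overlapped between the groups. None of the 7 passed edgeR's quasi-likelihood test at a Benjamini-Hochberg adjusted p of 0.05, a threshold that only 0.0362% of the genes tested passed in either direction. At an unadjusted p of 0.05 the same test took in 3 of the 7 as higher after PCN, Muc2, Muc4 and Muc6, against 6.25% of all genes, and 0 as lower, against 3.73%. DESeq2 on the same counts called Muc2 and Muc6 higher, 2 of 7 where it called 1.03% of all genes higher, and called none lower, where it called 0.259% of all genes lower. Groups that did not overlap, with PCN higher, were seen for 2 of 7 mucin genes and 8.69% of all genes. The median log2 fold change was 0.51 over the 7 genes and 0.01 over all genes tested.

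The libraries held 21924026 to 25422856 counts and 20538 to 20963 detected genes each. B3galt5, the galactosyltransferase that the study follows, was at 450.3, 565 and 381 CPM (counts scaled to a common library total) in vehicle libraries 3, 5 and 6 and at 1283, 1371 and 1426 CPM in PCN libraries 4, 5 and 6. It was thus higher in every treated library, with a log2 fold change of 1.55 and an edgeR adjusted p of 0.0262. Libraries of the same group correlated at 0.973 to 0.984 and libraries of different groups at 0.969 to 0.982 on the log2 CPM scale across genes, so that no library stood apart on this measure. Summed over the 16 epithelial genes listed, among them Epcam, Cdh1 and Krt8, the level was 13210 to 14304 CPM in vehicle and 12814 to 14496 CPM in PCN libraries.

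**Figure D1:**
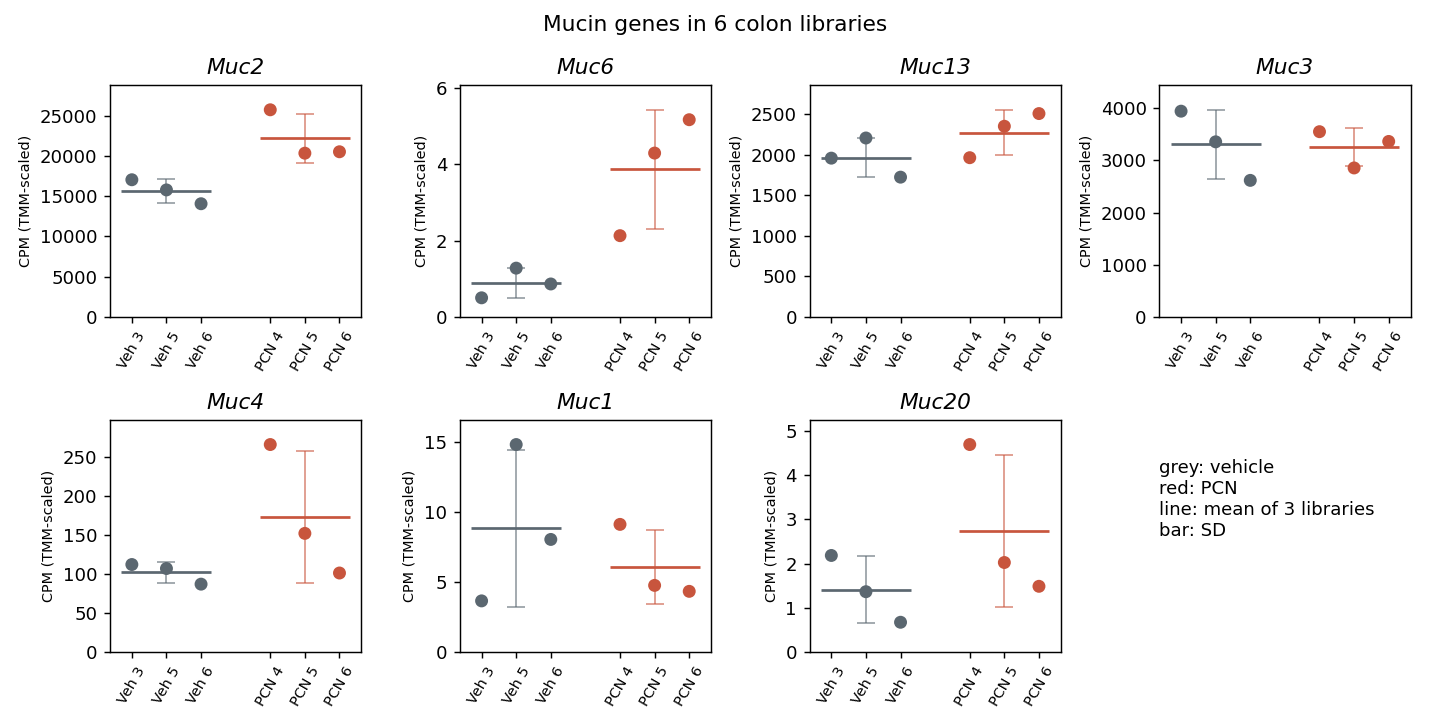
CPM after TMM scaling (vertical axis, linear from 0, with its own range in each panel) of the 7 mucin genes in the 6 libraries; grey points are vehicle, red points PCN, lines the mean of 3 libraries and bars the SD. Muc2 (14066 to 17047 against 20348 to 25743 CPM) and Muc6 (0.500 to 1.28 against 2.13 to 5.17 CPM) are the panels in which the groups do not overlap.

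Muc2 encodes the gel-forming mucin of intestinal goblet cells. It was counted at 17047, 15783 and 14066 CPM in vehicle libraries 3, 5 and 6 and at 25743, 20348 and 20526 CPM in PCN libraries 4, 5 and 6. All 3 treated libraries lay above all 3 controls, PCN library 4 was the highest of the 6, and PCN libraries 5 and 6 were nearly equal. The means were 15632 ± 1496 CPM (SD, n = 3) and 22206 ± 3065 CPM (SD, n = 3). The log2 fold change was 0.51 (SE 0.14, 95% interval 0.19 to 0.83), with an unadjusted p of 0.00632 and an adjusted p of 0.344 by edgeR's quasi-likelihood test. DESeq2 gave 0.49 and an adjusted p of 0.0305. That call was sensitive to single libraries: the DESeq2 adjusted p was 0.285 without vehicle library 6, 0.184 without PCN library 4, 0.0561 without vehicle library 5 and 0.0590 without PCN library 5, while the log2 fold change stayed between 0.38 and 0.55. In bulk RNA, more Muc2 per goblet cell and more goblet cells cannot be told apart.

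The scale of Muc2 among colon transcripts was large. It took 1.71%, 1.58% and 1.46% of all counts in the vehicle libraries and 2.52%, 2.01% and 2.02% in the PCN libraries, and ranked second of all genes by count in every library. The 95% Wilson intervals of these shares, which cover counting error only, were 1.70% to 1.72% in vehicle library 3 and 2.51% to 2.53% in PCN library 4. All 7 mucin genes together took 2.31%, 2.15% and 1.92% of counts in vehicle libraries and 3.09%, 2.54% and 2.61% in PCN libraries, again without overlap. Muc2 made up 73.9%, 73.5% and 76.0% of the counts of the 7 genes in vehicle libraries and 81.6%, 79.1% and 77.4% in PCN libraries.

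Muc2 was set against the other goblet cell transcripts of the same library. Over 25 goblet cell genes, such as the mucus proteins Fcgbp, Clca1 and Zg16, the summed level was 13072, 10619 and 11007 CPM in vehicle libraries 3, 5 and 6 and 19266, 16548 and 11626 CPM in PCN libraries 4, 5 and 6. PCN library 6 lay within the vehicle range for this sum, although it was above every control for Muc2 itself. The log2 ratio of Muc2 to the mean of these genes was 6.82, 7.06 and 6.93 in vehicle and 7.30, 6.99 and 7.26 in PCN libraries. The groups overlapped through vehicle library 5 and PCN library 5, and the difference of 0.25 had a 2-sided exact permutation p of 0.2. Relative to 16 epithelial genes, the log2 ratio was 4.90, 4.86 and 4.77 in vehicle and 5.47, 5.27 and 5.33 in PCN libraries. Here the groups did not overlap, and the difference of 0.51 had an exact permutation p of 0.1, the smallest that 3 against 3 libraries allow. Relative to the membrane mucin Muc13, the log2 ratio was 3.12, 2.84 and 3.03 in vehicle and 3.71, 3.11 and 3.03 in PCN libraries, a difference of 0.29 with an exact permutation p of 0.4 that rested mostly on PCN library 4. Without that library the difference was 0.08.

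**Figure D2:**
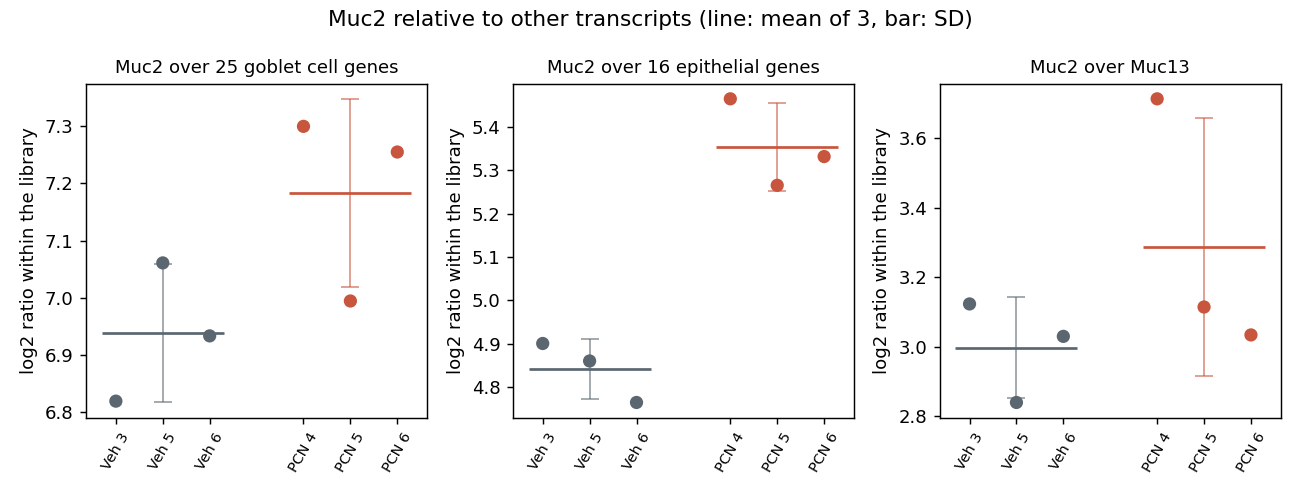
Log2 ratio (vertical axis, not starting at 0) of Muc2 to the mean of 25 goblet cell genes, to the mean of 16 epithelial genes and to Muc13 within each library; grey points are vehicle, red points PCN, lines the mean of 3 libraries and bars the SD. The groups are apart only in the middle panel (4.77 to 4.90 against 5.27 to 5.47).

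Muc6 encodes a second gel-forming mucin, known from the glands of the stomach and the Brunner glands of the duodenum. Its reads were few: 11, 31 and 22 counts in vehicle libraries 3, 5 and 6 and 53, 104 and 122 counts in PCN libraries 4, 5 and 6. This is 0.500, 1.28 and 0.863 CPM against 2.13, 4.29 and 5.17 CPM. The lowest PCN library was above the highest vehicle library, and PCN library 4, the highest for Muc2, was the lowest treated library for Muc6. The log2 fold change was 2.12 (SE 0.46, 95% interval 1.07 to 3.17), the widest difference among the 7 genes, with an unadjusted p of 0.00156 and an adjusted p of 0.219 by edgeR. DESeq2 gave 2.11 and an adjusted p of 0.00303, which rose to 0.0505 without vehicle library 6, 0.0700 without PCN library 5 and 0.0611 without PCN library 6. Other genes of stomach and Brunner glands were near 0 in all libraries. The 8 of them in the table, among them Tff1, Tff2, Pgc and Muc5ac, summed to 0.510 to 1.15 CPM in vehicle and 0.413 to 0.964 CPM in PCN libraries. Tff1 had no count in 5 of the 6 libraries and 3 counts in vehicle library 6, and Muc5ac had 0, 9 and 2 counts in vehicle libraries and 2, 0 and 1 in PCN libraries.

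Muc2 and Muc6 are neighbours. In GRCm38, Muc2 lies on chromosome 7 from 141690340 to 141754693 on the plus strand, and Muc6 on the same chromosome from 141633456 to 141655319 on the minus strand, with 35021 bases between their divergently facing starts. The nearest tested gene beyond Muc2, Tollip, lay 120120 bases away and had a log2 fold change of -0.08 (SE 0.09). The nearest beyond Muc6, Ap2a2, lay 445 bases away and had one of -0.03 (SE 0.09). Genes with too few reads to be tested were passed over. Neither Tollip nor Ap2a2 passed edgeR's test (adjusted p 0.799 and 0.926).

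The 250 bases before the start of each mucin gene, taken from RefSeq on GRCm38.p6, were read for short motifs, since the compound activates a nuclear receptor. DESeq2 had called both secreted mucins higher, and edgeR had called neither. All 7 genes matched, with 8 windows, as RefSeq gives Muc13 a pair of starts. The windows of Muc2 (chr7:141690090-141690339, plus strand) and Muc6 (chr7:141655394-141655643, minus strand) are shown as the members that DESeq2 called, and those of Muc3 (chr5:137166047-137166296, minus strand) and of the second start of Muc13 (chr16:33794239-33794488, plus strand) as windows that hold the nuclear receptor core site. Each runs 5′ to 3′ on the strand of its gene, and capitals mark every match to a searched motif on either strand.
Muc2: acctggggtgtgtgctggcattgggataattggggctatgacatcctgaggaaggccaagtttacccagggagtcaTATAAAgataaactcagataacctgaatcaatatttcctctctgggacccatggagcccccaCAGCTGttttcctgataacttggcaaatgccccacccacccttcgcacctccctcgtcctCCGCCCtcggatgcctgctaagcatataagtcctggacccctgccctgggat
Muc6: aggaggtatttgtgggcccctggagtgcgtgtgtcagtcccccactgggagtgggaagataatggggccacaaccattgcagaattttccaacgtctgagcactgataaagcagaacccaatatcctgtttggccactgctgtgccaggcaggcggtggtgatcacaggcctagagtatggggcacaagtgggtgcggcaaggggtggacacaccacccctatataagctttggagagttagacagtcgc
Muc3: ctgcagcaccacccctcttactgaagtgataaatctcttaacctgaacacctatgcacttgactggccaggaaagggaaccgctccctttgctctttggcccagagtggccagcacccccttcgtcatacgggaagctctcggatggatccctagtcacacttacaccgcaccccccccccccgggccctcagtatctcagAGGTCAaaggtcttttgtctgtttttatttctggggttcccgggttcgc
Muc13: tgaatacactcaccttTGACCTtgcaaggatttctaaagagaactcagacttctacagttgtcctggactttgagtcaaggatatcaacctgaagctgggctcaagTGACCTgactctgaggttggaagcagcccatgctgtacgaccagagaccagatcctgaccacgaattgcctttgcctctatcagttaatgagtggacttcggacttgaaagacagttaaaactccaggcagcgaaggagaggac
The core site AGGTCA was at -49 from the start of Muc3, at -25 from the first start of Muc13 and at -234 and -144 from its second start, the Muc13 matches all as TGACCT. It was in 14.0% of 32851 RefSeq promoter windows of this length. It was not among the letters of the Muc2 or Muc6 windows, nor was the related AGTTCA, which 11.8% of windows hold. Pairs of AGNTCA sites were absent from all 8 windows as direct repeats spaced by 3 (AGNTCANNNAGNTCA) or by 4 (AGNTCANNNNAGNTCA) and as an everted repeat spaced by 6 (TGANCTNNNNNNAGNTCA), and such pairs were found in 0.0517%, 0.103% and 0.0304% of all windows. The Muc2 window held TATAAA at -174, the E-box CAGCTG at -112 and GGGCGG, as CCGCCC, at -52, motifs found in 12.4%, 13% and 32.7% of windows. TTTATG, the motif of Cdx proteins, was in 10.8% of windows and, among the 8, at -180 from the first start of Muc13. The Muc6 window held no exact match to any of these motifs, and variants of TATAAA were not searched. Each match is a match of letters only. No sequence farther upstream than these 250 bases was searched, so an absence here holds for the windows alone. The PXR site that the paper reports for B3galt5 lies farther upstream than such windows reach. Whether Muc2 or Muc6 has a more distant site was not tested. The RefSeq start of Muc3 lies upstream of the gene as GENCODE M21 draws it, so the 2 annotations differ in the first part of that gene.

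Of the 5 membrane mucins, Muc13 and Muc3 were the most abundant per length, and both are known from the apical surface of colonocytes. Muc13 lies on chromosome 16 from 33794037 to 33819934, plus strand, and Muc3 on chromosome 5 from 137134922 to 137149322, minus strand. Muc13 was at 1957, 2205 and 1723 CPM in vehicle libraries 3, 5 and 6 and at 1963, 2350 and 2507 CPM in PCN libraries 4, 5 and 6. PCN library 4 fell within the range of the controls while PCN libraries 5 and 6 lay above it, so the groups overlapped. The log2 fold change was 0.21 (95% interval -0.09 to 0.52), with an edgeR adjusted p of 0.609. DESeq2 gave 0.20 and an adjusted p of 0.663.

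Muc3 was at 3943, 3356 and 2617 CPM in vehicle libraries 3, 5 and 6 and at 3551, 2855 and 3363 CPM in PCN libraries 4, 5 and 6. The highest and the lowest library were both vehicle, and the treated libraries lay between them. The means of 3306 ± 665 and 3256 ± 360 CPM (SD, n = 3 each) gave a log2 fold change of -0.02 (95% interval -0.39 to 0.35, edgeR adjusted p 0.978); changes of 0.35 on the log2 scale in either direction lay within that interval. The sign of this small difference turned when vehicle library 3 (0.12) or PCN library 5 (0.064) was left out. Its near neighbour Muc3a, which the table lists as a separate gene, was at 298, 317 and 282 CPM in vehicle and 290, 339 and 288 CPM in PCN libraries. How the counting treated reads that match both of these like-named genes is not stated. The ratio of Muc3 to Muc3a counts was 8.42 to 13.2 over the 6 libraries with the groups overlapping.

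Muc4, whose membrane-bound subunit carries EGF-like domains that bind the receptor ErbB2, was at 112, 107 and 86.7 CPM in vehicle libraries 3, 5 and 6 and at 266, 152 and 101 CPM in PCN libraries 4, 5 and 6. PCN libraries 4 and 5 were above all controls, and PCN library 6 was below vehicle libraries 3 and 5. The log2 fold change was 0.77 (SE 0.30, 95% interval 0.07 to 1.46), with an unadjusted p of 0.0356 and an adjusted p of 0.474 by edgeR. DESeq2 gave 0.75 and an adjusted p of 0.214. The edgeR value turned on single libraries. Without PCN library 4 it was 0.31 (edgeR adjusted p 0.784), and without PCN library 6 it was 1.02, with an adjusted p of 0.253 by edgeR and of 0.00607 by DESeq2.

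Muc20 is a small membrane mucin whose human counterpart binds the receptor MET. It had 48, 33 and 17 counts in vehicle libraries 3, 5 and 6 and 117, 49 and 35 counts in PCN libraries 4, 5 and 6. PCN library 4 stood above the other 5, which overlapped. The log2 fold change of 0.97 had a 95% interval of -0.30 to 2.24 and an edgeR adjusted p of 0.579, and it was 0.33 without PCN library 4. In GENCODE M21, Muc4 (chromosome 16, 32735886 to 32782391, plus strand) and Muc20 (32777419 to 32797435, minus strand) overlap tail to tail by 4973 bases. Muc4 was matched there by symbol and not by identifier, so the gene model that was counted may differ. The counting is not stated to use strand, so reads in a shared stretch cannot be assigned to one or the other with certainty. Muc4 counts exceeded Muc20 counts 51.3-fold to 130-fold.

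Smooth muscle genes also differed between the libraries, with PCN library 4 highest as for Muc4 and Muc20. The 8 smooth muscle genes listed, all tested and none at 0, summed to 2488, 1549 and 1607 CPM in vehicle libraries 3, 5 and 6 and to 4854, 3127 and 1400 CPM in PCN libraries 4, 5 and 6. PCN libraries 4 and 5 were the highest, as for Muc4, and PCN library 6 was below every control, whereas for Muc4 and Muc20 it lay within the control range. The order of PCN library 4 above 5 above 6 was not particular to smooth muscle. In that order the goblet cell genes summed to 19266, 16548 and 11626 CPM. Genes for mucus release and hydration, which share Clca1 with them, summed to 8740, 7565 and 5203 CPM. Fibroblast and matrix genes summed to 2646, 2471 and 2109 CPM. In the goblet cell and mucus release sums, PCN library 6 lay within the control range. Immune cell genes were instead highest in PCN library 5 (1598 CPM). All 8 had a positive log2 fold change (median 0.70), DESeq2 called 0 of them, and edgeR took 1, the muscle filament gene Des (0.92), as higher at an unadjusted p of 0.05, against 6.25% of all genes. Among the genes of at least 10 CPM, the nearest in pattern to Muc20 were the matrix-binding lectin Clec3b and the enteric smooth muscle actin Actg2, and the nearest to Muc4 were the neuronal amino acid transporter Slc6a17 (0.123) and the chloride channel Ano1 (0.139), on the measure of likeness given at the end. These were chosen after their values were seen. The part of smooth muscle, goblet cell or fibroblast content in the Muc4 and Muc20 values was not tested.

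Muc1, the widely expressed epithelial membrane mucin, varied widely within the vehicle group. It lies on chromosome 3 from 89229057 to 89233381, plus strand, and had 80, 360 and 205 counts in vehicle libraries 3, 5 and 6 and 227, 115 and 102 counts in PCN libraries 4, 5 and 6. Vehicle libraries 3 and 5 were the lowest and the highest of the 6, and all treated libraries lay between them. The log2 fold change was -0.54 (SE 0.49, 95% interval -1.68 to 0.59, edgeR adjusted p 0.728), and without vehicle library 5 it was 0.051. The genes nearest to this pattern were the peptide transporter Slc15a1, with 285, 1020 and 764 counts in vehicle and 653, 405 and 361 counts in PCN libraries, and the homeobox gene Hoxa13, which marks the posterior gut, at 15.4, 50.9 and 28.9 CPM and 42.0, 29.2 and 15.1 CPM. Both shared with Muc1 the low vehicle library 3 and the high vehicle library 5, and both were chosen after their values were seen. The posterior colon genes listed summed to 40.5, 86.2 and 54.9 CPM in vehicle and 83.3, 57.1 and 36.6 CPM in PCN libraries, a sum of which Hoxa13 itself was a large part. The median of the list, each gene centred on its own mean log2 CPM, was -0.31, 0.40 and 0.06 in vehicle and 0.43, 0.13 and -0.22 in PCN libraries, highest in PCN library 4 and not in vehicle library 5 as Muc1 was. Their part in the Muc1 values was not tested.

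**Figure D3:**
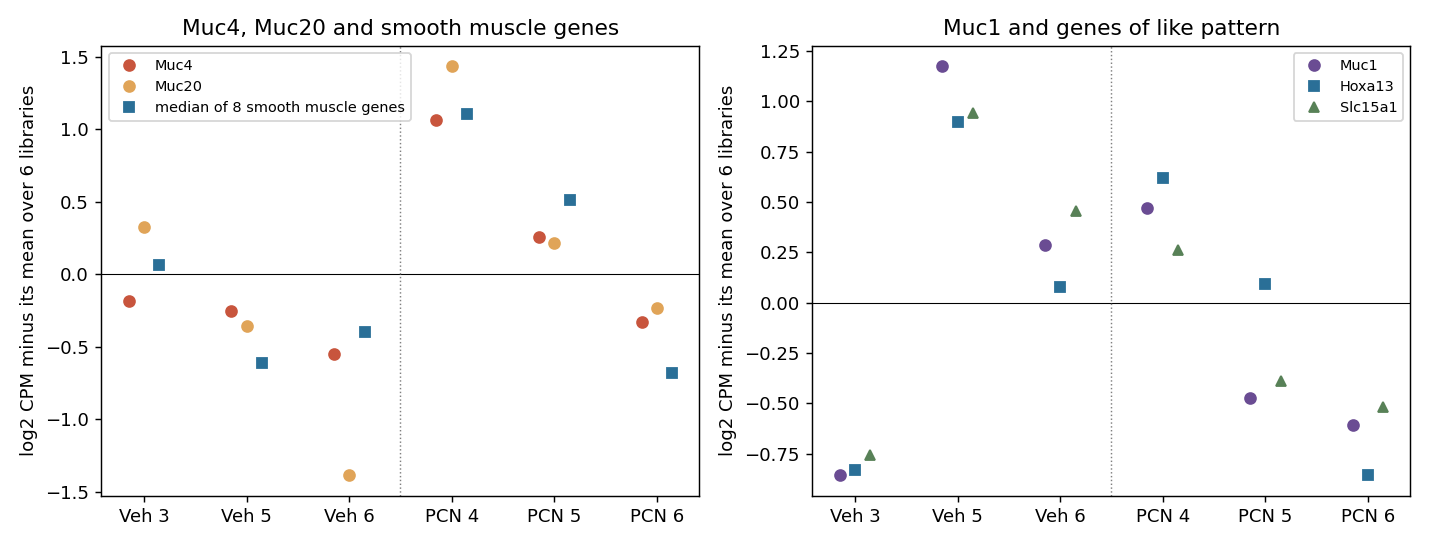
Log2 CPM of each gene minus its own mean over the 6 libraries (vertical axis), with vehicle libraries left and PCN libraries right of the dotted line; left, Muc4, Muc20 and the median of 8 smooth muscle genes, right, Muc1, Hoxa13 and Slc15a1. The smooth muscle median is 1.10 in PCN library 4 and -0.68 in PCN library 6, and the 3 genes on the right are all lowest or near lowest in vehicle library 3 and highest in vehicle library 5.

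**Figure D4:**
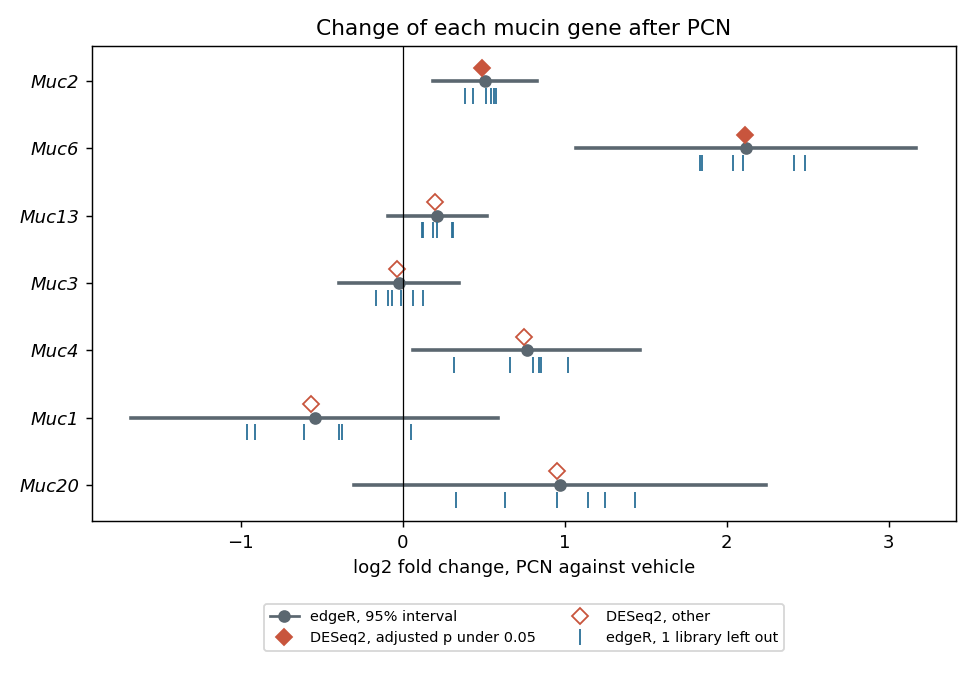
Log2 fold change of PCN against vehicle (horizontal axis) for the 7 mucin genes: circles and bars are edgeR with its 95% interval, diamonds DESeq2 (filled where the adjusted p is under 0.05), and ticks edgeR with 1 library left out. The interval excludes 0 for Muc2 (0.19 to 0.83), Muc6 (1.07 to 3.17) and Muc4 (0.07 to 1.46), and the ticks cross 0 for Muc1 and Muc3.

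Set beside each other in the plot of fold changes, the direction of Muc2, Muc6, Muc13, Muc4 and Muc20 stayed positive with every library left out in turn. The ranges were 0.39 to 0.57 for Muc2, 1.84 to 2.48 for Muc6, 0.12 to 0.31 for Muc13, 0.31 to 1.02 for Muc4 and 0.33 to 1.43 for Muc20. The ranges of Muc1 (-0.96 to 0.051) and Muc3 (-0.17 to 0.12) included both signs.

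Levels of different genes were compared per length, in the FPKM values that the authors deposited. Over the 6 libraries Muc2 was at 1354 ± 276 FPKM, Muc13 at 695 ± 85.7, Muc3 at 231 ± 31.9, Muc4 at 10.7 ± 5.03, Muc1 at 3.18 ± 1.81, Muc20 at 0.509 ± 0.337 and Muc6 at 0.151 ± 0.121 FPKM (SD, n = 6). The lowest library of each gene was above the highest library of the next gene, except for Muc20 and Muc6, whose ranges of 0.172 to 1.14 and 0.0322 to 0.326 FPKM overlapped. Muc20 was nonetheless above Muc6 in 6 of 6 libraries. The steps were uneven: Muc2 was 1.95-fold above Muc13 and Muc13 3.01-fold above Muc3, and a gap of 21.6-fold separated Muc3 from Muc4. Per length, Muc2 made up 56.8%, 53.7% and 57.0% of the summed FPKM of the 7 genes in vehicle libraries and 66.7%, 59.6% and 57.9% in PCN libraries, less than its share of counts. In this measure the groups were apart by a small margin.

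The other mucin genes listed, 18 in number and including mucin-like surface proteins, were mostly low. The table held 14 of them. Of the 8 that could be tested, 7 had a log2 fold change above 0 and 1 below (median 0.23). Of these, 0 were taken at an unadjusted p of 0.05 by edgeR or called by DESeq2. Besides Muc3a (log2 fold change 0.03, edgeR adjusted p 0.940), the sialomucin Cd164 was measured well (0.10, adjusted p 0.719). The gel-forming airway and stomach mucins Muc5ac and Muc5b, as well as Muc15, Muc19, Mucl1 and Mucl3, had at most 9 counts in any library and were not tested.

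Mucins depend on other genes of the goblet cell, and these were read in groups. Of the 25 goblet cell genes, 22 had positive and 3 negative log2 fold changes (median 0.24). DESeq2 called 1 higher, against 1.03% of all genes, and 0 lower. It was the disulphide isomerase Agr2 that is needed for Muc2 folding, which was at 507, 408 and 412 CPM in vehicle and 977, 657 and 570 CPM in PCN libraries (DESeq2 log2 fold change 0.72, adjusted p 0.0306, and edgeR adjusted p 0.326). All 3 treated libraries were above the controls for Agr2. The Muc2-bound protein Fcgbp was at 3499, 2582 and 2961 CPM in vehicle and 5809, 4931 and 3416 CPM in PCN libraries, where PCN library 6 fell within the control range. Its log2 fold change was 0.65 by edgeR and 0.63 by DESeq2, with a DESeq2 adjusted p of 0.0757. The chloride and bicarbonate channel Best2 went the other way, with a log2 fold change of -0.88 and an edgeR adjusted p of 0.411.

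Of 16 goblet cell transcription factors tested, 4 were taken as higher by edgeR at an unadjusted p of 0.05 and 0 as lower (6.25% and 3.73% of all genes), and DESeq2 called 0. They were Xbp1 (log2 fold change 0.29), which drives the secretory machinery, the epithelial factor Elf3 (0.30), Creb3l1 (0.60) and Spdef (0.74), a regulator of goblet cell maturation, with edgeR adjusted p from 0.370 to 0.467. In the list for mucin folding, packing and secretion, 18 of 23 log2 fold changes were positive (median 0.19) and 6 were taken as higher at an unadjusted p of 0.05 (6.25% of all genes), among them the granule GTPase Rab27a (0.51) and the cargo receptor Lman1 (0.34). DESeq2 called Agr2 alone in this list, against 1.03% of all genes called higher. Of the 13 genes for mucus release and hydration, 10 were positive (median 0.16) and DESeq2 called 0.

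The enzymes that place sugars on mucins were read in 2 lists. Of the 13 polypeptide GalNAc transferases and related genes that start O-glycans, 8 were positive and 5 negative (median 0.11), and DESeq2 called 1 higher, against 1.03% of all genes. This was Galnt3, at 89.9, 88.4 and 78.4 CPM in vehicle and 128, 114 and 117 CPM in PCN libraries. The 2 groups did not overlap for this gene. Its log2 fold change was 0.48 by edgeR (adjusted p 0.178) and 0.47 by DESeq2 (adjusted p 0.00727). Galnt5 (0.49), Galnt7 (0.35) and Galnt6 (0.25) were the other members taken as higher by edgeR at an unadjusted p of 0.05. Of 29 genes for O-glycan cores and extension, 20 were positive and 9 negative (median 0.18). Of these, 11 were taken as higher and 2 as lower at the unadjusted threshold, against 6.25% and 3.73% of all genes. DESeq2 called B3galt5 higher and 1 gene lower, against 1.03% and 0.259% of all genes. The lower one was the sulphotransferase Gal3st2, at 16.4, 11.3 and 17.1 CPM in vehicle and 7.27, 7.51 and 8.09 CPM in PCN libraries (log2 fold change -0.98, adjusted p 0.00125). The chain-extending enzyme B3gnt7 had the largest edgeR value of the list (1.70), with all PCN libraries above the controls. DESeq2 gave 1.68 and an adjusted p of 0.0980. The PCN libraries of this gene spread widely, with means of 22.2 ± 2.34 CPM in vehicle and 72.4 ± 51.4 CPM in PCN (SD, n = 3 each).

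The partners of the membrane mucins showed no common direction. Of 15 receptors, galectins and sheddases tested, 9 were positive and 6 negative (median 0.02), and DESeq2 called 0. At the unadjusted threshold of edgeR, Egfr (0.29) and Lgals3 (0.35) were taken as higher and Lgals4 (-0.32) and Erbb3 (-0.38) as lower, against 6.25% and 3.73% of all genes. Of 14 glycocalyx and brush border genes, 8 were positive and 6 negative (median 0.02), and DESeq2 called 1 higher, the actin-capping protein Eps8 (0.39, adjusted p 0.0160), against 1.03% of all genes. The 13 surface colonocyte genes other than Muc3 had a median of -0.01, with Lypd8, an antibacterial surface protein of the colon, the 1 gene called lower by DESeq2 (-0.68, adjusted p 0.0161), against 0.259% of all genes.

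Marker genes of other cell types, set beside the mucin values, gave positive medians in some lists and negative or near-zero ones in others; DESeq2 called 1.03% of all genes higher and 0.259% lower. Of 13 stem and proliferating cell genes, 12 were positive (median 0.65) and DESeq2 called 4 higher, the replication helicase genes Mcm2 (0.84), Mcm3 (1.19), Mcm5 (0.97) and Mcm6 (0.91). Of 10 fibroblast and matrix genes, 9 were positive (median 0.57) and DESeq2 called 4 higher, the matrix genes Col6a2 (0.63), Col6a3 (1.02), Col3a1 (0.81) and Fn1 (0.73). Their summed level was 1440 to 1829 CPM in vehicle and 2109 to 2646 CPM in PCN libraries. All 14 immune cell genes were positive (median 0.59), DESeq2 called 1 higher, the immunoglobulin joining chain gene Jchain, and the summed level was 358 to 828 CPM against 920 to 1598 CPM. Of 7 tuft cell genes, 6 were positive (median 0.23) and DESeq2 called 0.

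The small intestine, enteroendocrine, neuron and glia, endothelial and epithelial lists had medians near or below 0. Of 12 small intestine genes, 9 were negative (median -0.49). DESeq2 called 2 lower, against 0.259% of all genes, the brush border peptidase Enpep (-1.54) and the apolipoprotein Apoa1 (-2.90). Of these, edgeR called Enpep (adjusted p 0.0262), where it called 0.0362% of all genes in either direction. Of 8 enteroendocrine genes 6 were negative (median -0.19), and of 8 neuron and glia genes 7 were negative (median -0.14), with 0 called by DESeq2 in either list. The 8 endothelial genes were split evenly, 4 positive and 4 negative, with 0 called. The 16 epithelial genes had 6 positive and 10 negative values with a median of -0.01, and DESeq2 called 0. The part of these cell types in the mucin values was not tested. Among 13 cytokine and microbial response genes linked to mucus, 9 were positive (median 0.23). DESeq2 called 1 of them higher, against 1.03% of all genes, the flagellin receptor Tlr5 (0.56, adjusted p 0.0435). The list of 10 PXR response genes holds B3galt5, which the study picked from RNA sequencing after PCN. That list is thus not independent of these data. In it, 9 genes were positive (median 1.64). DESeq2 called 8 higher, against 1.03% of all genes, among them Akr1b7 (2.16) and Abcb1a (1.17).

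The genes most like Muc2 and Muc13 in their pattern over the 6 libraries were found by the root mean square difference of log2 CPM values, each centred on its own mean, among 10290 genes of at least 10 CPM. For Muc2 they were the Golgi GTPase Arl1 (0.0528), the phospholipase Plch1 (0.0607) and the ankyrin Ank3 (0.0642), where a gene with no variation would be at 0.286. Each was highest in PCN library 4 and lowest in a vehicle library, as Muc2 was, and Galnt3 (0.0705) was among the 5 nearest. For Muc13 they were the vesicle transport gene Sft2d2 (0.0585), the nucleolar gene Tbl3 (0.0632) and the adaptor Blnk (0.0657), where a gene with no variation would be at 0.182. With so many genes and 6 libraries, close patterns are a description only.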

How the data were processed

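Colon RNA from 3 vehicle and 3 PCN libraries was measured by RNA-seq. The Supplementary Methods state that the authors removed adapters and low-quality reads, mapped with STAR to a pig assembly and counted with HTSeq, whereas the labels name mm10, another library kit and another amount of RNA. The gene identifiers are mouse ones. The deposited counts are whole reads per gene, and the FPKM values deposited by the authors scale them by gene length and library size, in a way not given in the sources used here. The authors' log2 fold change and p-value columns were not used, nor were the deposited start and end positions.

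After filterByExpr (min.count 10, min.total.count 15) and TMM scaling, counts were tested by the quasi-likelihood functions of edgeR 4.0.16 (R 4.3.3), with Benjamini-Hochberg adjustment over the 16586 genes tested and a threshold of 0.05. CPM were computed on the TMM-scaled library sizes. With 21924026 to 25422856 counts per library, Muc6 and Muc20 rest on 11 to 122 reads a library and are imprecise. DESeq2 1.42.0 and limma 3.58.1 (log2(FPKM + 1) and log2(FPKM + 0.1)) were alternatives, with no filter, other scalings, adjusted deviances, a replicate block and each library left out. DESeq2 without each library in turn was added after seeing the data. Single ratios were compared with exact permutation tests (scipy 1.17.1). The script was tested on simulated data.

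All 7 mucin genes are named. Genes of a list are named from its up to 4 members with the smallest edgeR p and those called by edgeR or DESeq2, and the text does not name all of these. Each member's nearest tested gene on either side was looked up, and likeness was ranked for all 7, with Muc2 and Muc13 named by rule and the others after their values were seen. The members and lists were chosen with earlier results of these data known. Coordinates come from GENCODE M21 (GRCm38), where Muc4 and Muc6 were matched by symbol.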

Additional observations from a re-analysis of the deposited data

How the results depend on the processing

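Calls at the threshold changed with the tool and the libraries, and the cause was not tested. edgeR called 6 of all genes, against 214 by DESeq2, 27 with no filter on low counts, 3 with library sizes only, 3 with upper-quartile scaling, 0 to 24 with 1 library left out, and by DESeq2 with 1 library left out 410 (vehicle 3), 257 (vehicle 5), 149 (vehicle 6), 135 (PCN 4), 168 (PCN 5) and 305 (PCN 6). Of the 7 mucins edgeR called 0, with every library left out as well, and DESeq2 called 2, or 0 to 2 with 1 library left out. DESeq2's log2 fold changes past the threshold were 0.49 for Muc2 (0.55 without vehicle library 3 and 0.54 without PCN library 6), 2.11 for Muc6 (1.84 without vehicle library 3, 2.49 without vehicle library 5 and 2.41 without PCN library 4) and, without PCN library 6, 1.02 for Muc4. Muc1 changed sign without vehicle library 5 (0.051 by edgeR, 0.043 by DESeq2; edgeR range with 1 library left out -0.96 to 0.051). Muc3 did so without vehicle library 3 (0.12 and 0.11) and without PCN library 5 (0.064 and 0.050; edgeR range -0.17 to 0.12). Muc13 and Muc20 kept their direction and stayed short of the threshold in all 20 alternatives. On log2(FPKM + 1) the change of Muc6 was 0.23 and on log2(FPKM + 0.1) it was 1.10, since the pseudocount weighs on low values. Muc2 relative to the median of the epithelial genes differed by 0.42 on the log2 scale, and by 0.46 to 0.56 relative to their mean with 1 library left out.

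The replicate numbers 5 and 6 are in both groups, and what the numbers stand for is not stated. Deviations of same-numbered libraries from their group means correlated at -0.15 and -0.09. So few pairs cannot decide whether such libraries share more than a number. A replicate block takes up vehicle library 3 and PCN library 4, whose numbers are absent from the other group. Its PCN term therefore rests on libraries 5 and 6 of each group. With this block, edgeR called 74 genes and none of the mucins. Muc1 was at -1.27 and Muc4 at 0.36, both moved by over 1.5 times, and Muc3 was at 0.064. In those libraries Muc2 (0.46), Muc6 (2.15), Muc13 (0.32) and Muc20 (0.84) kept their direction. Depth limits Muc6, Muc20 and the untested mucins most.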
